A study of Mus musculus with 6 samples.

Results

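The 8 genes described here make, break down and sense the endocannabinoids: the receptor gene Cnr1, the synthesis genes Dagla, Daglb and Napepld, and the breakdown genes Mgll, Abhd6, Abhd12 and Faah. They were chosen by gene symbol and not by a cutoff on their measured values, but earlier results of these data were known. Each symbol matched 1 of the 47086 loci in the deposited table. The libraries were made from total RNA of primary hippocampal cultures after 14 days in vitro, with 3 libraries from wild type (WT) mice and 3 from *Fmr1* knockout (KO) mice. Both genotypes are labelled C57BL/6, no drug is given in the labels, and the methods describe hippocampal cultures from newborn pups (postnatal day 0). The sex of the pups and the animals behind each library are not stated. *Fmr1* encodes FMRP, an RNA-binding protein that represses translation and is lost in fragile X syndrome. The labels do not name the knockout allele, and for the mice in general the methods describe KO males with WT littermates.

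Endocannabinoids are lipids that neurons make on demand and that act backwards across the synapse. In the postsynaptic cell, group I metabotropic glutamate receptors (mGluRs) act through Gq proteins and phospholipase C to form diacylglycerol, which diacylglycerol lipase turns into 2-arachidonoylglycerol (2-AG). 2-AG then binds the CB1 receptor on the presynaptic terminal, which couples to Gi/o proteins and lowers transmitter release, and hydrolases end the signal. Anandamide, the other main endocannabinoid, is an N-acylethanolamine (NAE) with its own synthesis and breakdown enzymes. In the hippocampus CB1 is known for dense expression in interneurons that contain cholecystokinin (CCK) and for weaker expression in pyramidal cells.

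Expression was given as FPKM, a fragment count divided by transcript length and by the size of the library. FPKM do not give read numbers, so the absolute depth is unknown and the spread between 3 libraries sets the precision. The commonest ratio between libraries at loci of low FPKM gave depths of 1.1 to 1.34 relative to WT replicate 1, if all mapped fragments set the scaling. *Fmr1* itself was at 19.0, 19.5 and 19.7 FPKM in WT and at 23.1, 21.8 and 18.5 FPKM in the libraries labelled *Fmr1* KO. Its transcript was thus not lower there. A value for a whole locus need not show the loss of an exon, and all directions given below take the genotype from the labels. Neuronal markers were abundant, with Slc17a7 at 270 to 290 FPKM and Gad1 at 83.9 to 92.8 FPKM, and so was the astrocyte marker Gfap at 542 to 675 FPKM. The RNA is therefore that of mixed cultures, in which fewer cells of a type and less RNA per cell cannot be told apart.

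All 8 genes were expressed in every library, and their FPKM spanned more than an order of magnitude. Averaged over the 6 libraries, Cnr1 was the most abundant at 67.9 FPKM, followed by Abhd12 at 63.9, Mgll at 51.4, Abhd6 at 23.6, Faah at 22.9, Dagla at 15.8, Daglb at 8.62 and Napepld at 4.04 FPKM. Among the 13195 loci with a mean of at least 1 FPKM in either genotype, Cnr1 was at the 93.1th percentile, Abhd12 at the 92.5th and Mgll at the 90.1th, while Daglb was at the 44.6th and Napepld at the 24.1th. The breakdown genes thus lay above the synthesis genes of the same lipid in every library. Mgll exceeded Dagla and Faah exceeded Napepld, per length of transcript.

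Neighbours in this order were separated in 5 of 7 cases, meaning that the lowest library of the one was above the highest of the other. The exceptions were Cnr1 with Abhd12 and Abhd6 with Faah. Cnr1 was above Abhd12 in all 3 libraries labelled *Fmr1* KO but in 2 of 3 WT libraries. Abhd6 was above Faah in all 3 WT libraries but in 1 of the 3 labelled *Fmr1* KO. Within each of these pairs there was thus no fixed order, whereas Cnr1 and Abhd12 were above Abhd6 and Faah in every library.

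**Figure D1:**
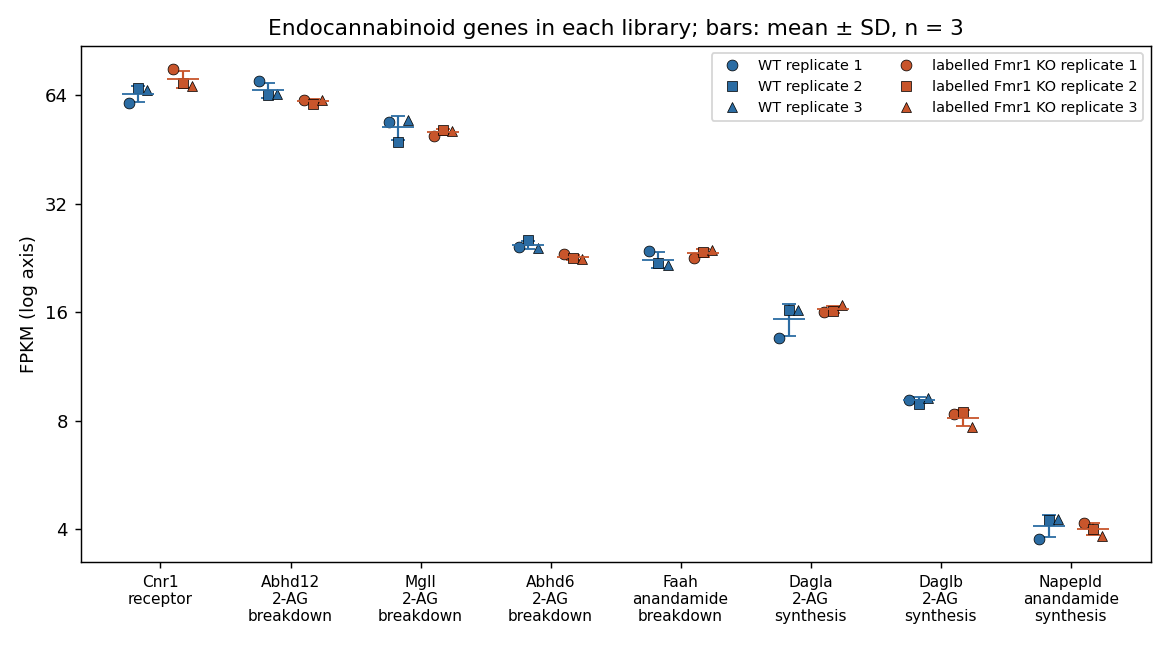
FPKM (log axis) of the 8 endocannabinoid genes in each library, with WT in blue and the libraries labelled Fmr1 KO in orange; symbols mark the replicate and bars the mean ± SD (n = 3). Cnr1 averaged 67.9 FPKM and Napepld 4.04 FPKM over the 6 libraries, and the differences between genes exceed those between genotypes.

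The genotypes were compared to ask whether transcripts of this system differ between the cultures labelled WT and *Fmr1* KO. limma was fitted to log2(FPKM + 0.1) of all 13195 loci, a scale that understates changes of weakly expressed genes, with two-sided tests and Benjamini-Hochberg adjustment over all of them. None of the 8 genes passed an adjusted p of 0.05 in limma, against 0.265% of all tested loci. An unadjusted p below 0.05 was found for Daglb and Abhd6, 2 of the 8 or 25%, against 14.8% of all tested loci. The median absolute log2 change of the 8 genes was 0.10, beside 0.08 over all tested loci, and 3 were above 0 and 5 below.

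In 4 of the 8 genes (50%) the FPKM ranges of WT and labelled *Fmr1* KO were apart, against 21.1% of all tested loci. Cnr1 was higher in every library labelled *Fmr1* KO than in any WT library, a pattern of 10.8% of all tested loci. Daglb, Abhd6 and Abhd12 were lower in each of them, which held for 10.3% of all tested loci. For such a gene the exact permutation test gives p = 0.1, the smallest possible with 3 libraries against 3. The separation depended on the scaling: it held for the same 4 genes after each library was centred on its median locus, and for none of the 8 when FPKM were rescaled to an equal sum without Bc1, a noncoding RNA that made up 73.7 to 80.6% of the FPKM sum.

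**Figure D2:**
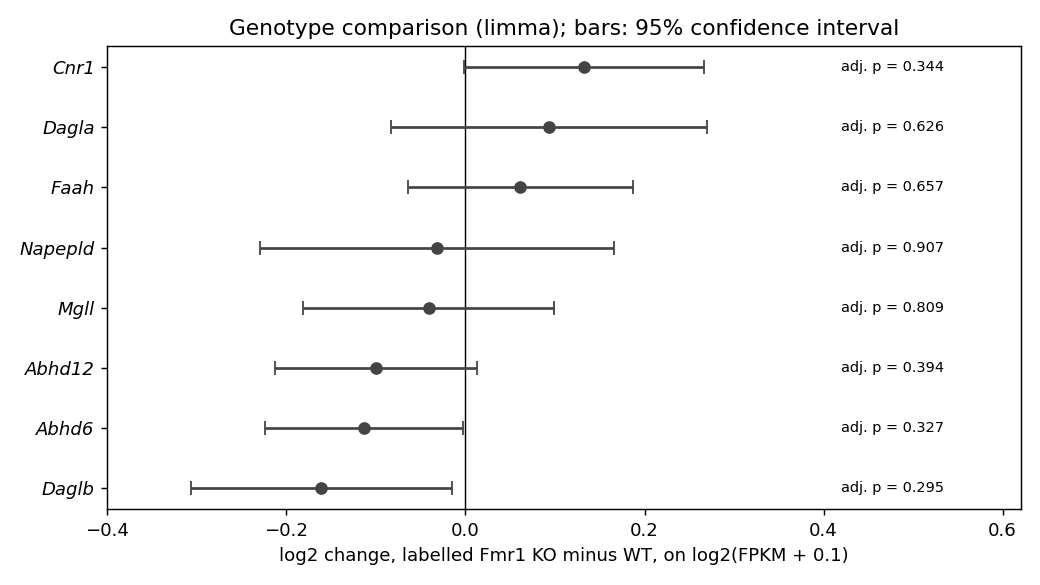
Log2 change of each gene, labelled Fmr1 KO minus WT, with its 95% confidence interval from limma; the adjusted p is printed at the right. The changes run from -0.16 for Daglb to 0.13 for Cnr1, and no adjusted p is below 0.05.

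Cnr1 (XLOC_008459, GRCm38 chromosome 4, 33923844 to 33948831, plus strand) encodes the CB1 receptor. Its FPKM was 61.0, 67.0 and 66.3 in WT and 75.6, 69.3 and 68.1 in the libraries labelled *Fmr1* KO. The lowest WT value was in replicate 1 and the highest value of all in *Fmr1* KO replicate 1, and the gap between the genotypes, from 67.0 to 68.1, was smaller than the spread within either. The means were 64.7 ± 3.27 and 71.0 ± 4.02 FPKM (SD, n = 3), a log2 change of 0.13 (95% confidence interval -0.0012 to 0.27, adjusted p = 0.344 in limma). The estimate corresponds to 9.61% more transcript, with an upper limit of 20.25%. Without *Fmr1* KO replicate 1 the log2 change was 0.09.

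Of the enzymes that make 2-AG, Dagla (XLOC_041371, chromosome 19, 10245265 to 10304877, minus strand) encodes diacylglycerol lipase alpha, the main source of 2-AG for synaptic signalling in the adult brain. It was at 13.5, 16.2 and 16.2 FPKM in WT and at 16.1, 16.1 and 16.7 FPKM in the libraries labelled *Fmr1* KO. WT replicate 1 stood below the others, which all lay between 16.1 and 16.7 FPKM, and the genotypes overlapped. The log2 change was 0.09 (95% confidence interval -0.08 to 0.27, adjusted p = 0.626 in limma), and it was 0.0058 without WT replicate 1.

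Daglb (XLOC_012058, chromosome 5, 143464487 to 143504442, plus strand) encodes diacylglycerol lipase beta, which is prominent in microglia and macrophages as well as in neurons. Its FPKM was 9.15, 8.92 and 9.25 in WT and 8.33, 8.44 and 7.66 in the libraries labelled *Fmr1* KO. All 3 of the latter were below the WT range, with replicate 3 the lowest. The log2 change was -0.16 (95% confidence interval -0.31 to -0.02), equal to -10.6%, with an unadjusted p of 0.0341 and an adjusted p of 0.295 in limma. This was the smallest p of the 8 genes, at rank 1524 of the 13195 loci. The last 809 bases of the locus are also covered by the 3′ end of Rac1, which is annotated on the other strand, in GENCODE M21. Rac1 was at 133 to 142 FPKM with overlapping genotypes, and whether the library preparation kept strand is not stated.

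Breakdown of 2-AG was represented by genes of 3 hydrolases. Mgll (XLOC_014005, chromosome 6, 88716423 to 88828360, plus strand) encodes monoacylglycerol lipase, which carries out most 2-AG hydrolysis in brain. It was at 54.1, 47.5 and 54.8 FPKM in WT and at 49.4, 51.4 and 51.0 FPKM in the libraries labelled *Fmr1* KO, all inside the WT range. The log2 change was -0.04 (95% confidence interval -0.18 to 0.10, adjusted p = 0.809 in limma). WT replicate 2 was the lowest of the 6 libraries. Without it the log2 change was -0.11 (adjusted p = 0.409 in limma), and it was -0.0039 without WT replicate 3 and -0.01 without WT replicate 1. Gm26588, annotated on the other strand within the same locus, was at 0.671 to 1.04 FPKM.

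Abhd6 (XLOC_032701, chromosome 14, 7996943 to 8056773, plus strand) encodes a postsynaptic serine hydrolase that degrades 2-AG near its site of synthesis. Its FPKM was 24.2, 25.3 and 24.2 in WT and 23.2, 22.6 and 22.4 in the libraries labelled *Fmr1* KO. The genotypes did not overlap, and the log2 change was -0.11 (95% confidence interval -0.22 to -0.0031), with an unadjusted p of 0.0451 and an adjusted p of 0.327 in limma. The estimate equals -7.58%.

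Abhd12 (XLOC_005701, chromosome 2, 150832493 to 150904731, minus strand) encodes a membrane hydrolase of 2-AG and of lysophosphatidylserine, best known in microglia. It was at 70.0, 64.2 and 64.4 FPKM in WT and at 62.3, 60.6 and 62.2 FPKM in the libraries labelled *Fmr1* KO. These lay below all WT libraries, of which replicate 1 was the highest. The log2 change was -0.10 (95% confidence interval -0.21 to 0.01, adjusted p = 0.394 in limma), and it was -0.06 without WT replicate 1.

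Taking the 3 hydrolases as a group, their summed FPKM was 148, 137 and 143 in WT and 135, 135 and 136 in the libraries labelled *Fmr1* KO (p = 0.1 in the exact permutation test, the smallest it can give). The sums no longer separated the genotypes after rescaling without Bc1, where they were 121.6 to 164.5 in WT and 129 to 143 in those labelled *Fmr1* KO. The share of each hydrolase overlapped between the genotypes. Abhd12 accounted for 44.9 to 47.2% of the sum, Mgll for 34.7 to 38.2% and Abhd6 for 16.3 to 18.5%. In exact permutation tests of these shares between genotypes, p was 0.5 for Abhd12, 0.5 for Mgll and 0.8 for Abhd6.

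The anandamide branch had one gene on each side. Napepld (XLOC_012257, chromosome 5, 21662901 to 21702154, minus strand) encodes the phospholipase D that releases anandamide and other NAEs from membrane precursors. It was at 3.76, 4.24 and 4.26 FPKM in WT and at 4.14, 3.99 and 3.84 FPKM in the libraries labelled *Fmr1* KO, within the WT range. Its log2 change was -0.03 (95% confidence interval -0.23 to 0.17, adjusted p = 0.907 in limma), the smallest change with the widest interval of the 8 genes. It was -0.09 without WT replicate 1 and -0.0016 without WT replicate 3.

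Faah (XLOC_010292, chromosome 4, 115996656 to 116018695, minus strand) encodes fatty acid amide hydrolase, the main anandamide-degrading enzyme. Its FPKM was 23.6, 21.9 and 21.6 in WT and 22.6, 23.5 and 23.9 in the libraries labelled *Fmr1* KO, and the genotypes overlapped. The log2 change was 0.06 (95% confidence interval -0.06 to 0.19, adjusted p = 0.657 in limma), and it was 0.10 without WT replicate 1. Over all 8 genes, with FPKM as deposited, the 95% intervals reached from -19.2% for Daglb to 20.5% for Dagla. Larger differences lie outside the interval of each gene taken singly, at that scaling only. After rescaling without Bc1, Daglb had a larger log2 change of -0.19 but an unadjusted p of 0.267 in limma. The spread between libraries was thus wider there, and larger differences are not excluded.

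Ratios within a library do not depend on how that library was scaled. Dagla exceeded Daglb by 1.48, 1.82 and 1.75 times in WT and by 1.93, 1.91 and 2.19 times in the libraries labelled *Fmr1* KO. The latter were all higher, with WT replicate 1 the lowest of the 6. The difference of the log2 ratio, from 0.74 ± 0.16 to 0.99 ± 0.11 (SD, n = 3), was 0.25, and 0.16 without WT replicate 1. The exact permutation p was 0.1, the smallest it can give, and 0.3 after adjustment over the 3 ratios compared.

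The ratio of Dagla to Mgll, the synthesis to the main breakdown transcript of 2-AG, was 0.25, 0.342 and 0.296 in WT and 0.325, 0.313 and 0.328 in the libraries labelled *Fmr1* KO. The range in WT enclosed that of the other genotype (exact permutation p = 0.4, adjusted p = 0.5 over the 3 ratios). For anandamide, Napepld to Faah gave 0.159, 0.194 and 0.197 in WT and 0.183, 0.17 and 0.161 in the libraries labelled *Fmr1* KO, again with overlap (exact permutation p = 0.5, adjusted p = 0.5). On the log2 scale these ratios differed by 0.13 and -0.09, less than the SD of the WT libraries (0.23 and 0.17). The SD of the libraries labelled *Fmr1* KO was smaller, 0.04 and 0.09. Without WT replicate 1 the differences were 0.02 and -0.19.

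**Figure D3:**
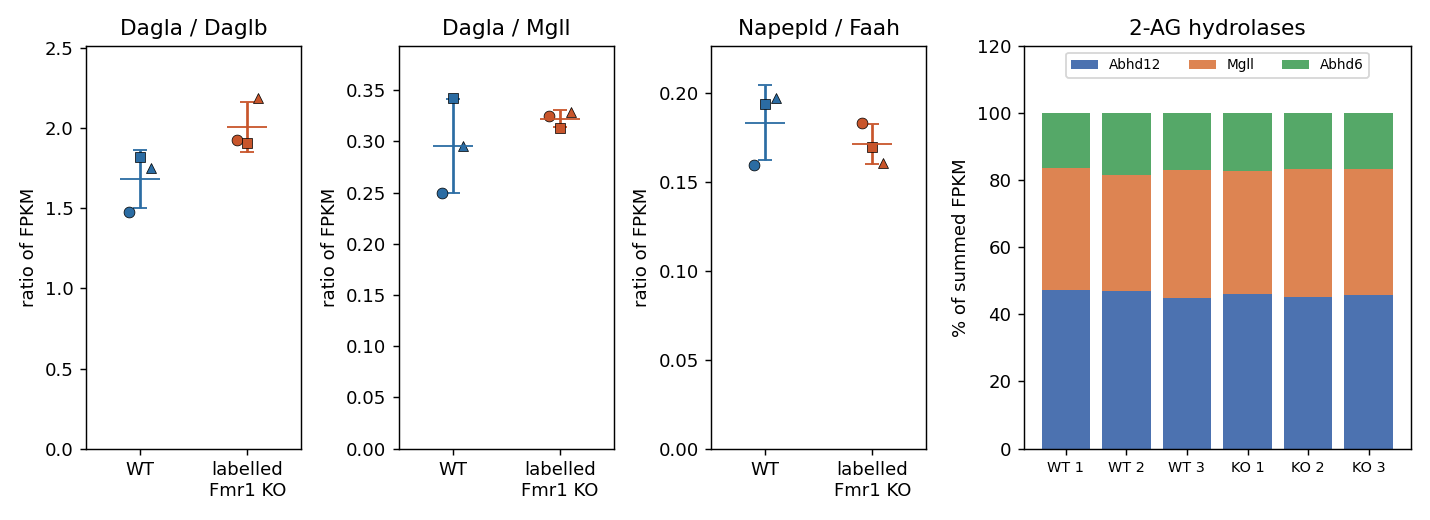
Ratio of FPKM within each library for 3 gene pairs (bars: mean ± SD, n = 3; circle, square and triangle: replicates 1, 2 and 3), and the share of each hydrolase in the summed FPKM of Mgll, Abhd6 and Abhd12. Dagla / Daglb runs from 1.48 to 1.82 in WT and from 1.91 to 2.19 in the libraries labelled Fmr1 KO, while the other ratios and the shares overlap.

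A wider list of 44 symbols covered other parts of the pathway, of which 41 were in the table and 25 were tested. None passed an adjusted p of 0.05 in limma. An unadjusted p below 0.05, which 14.8% of all tested loci had, was found for 3 of the 25, a share below that background. These were Homer2 and Fabp7, which were higher, and Fabp5, which was lower in those labelled *Fmr1* KO. The median log2 change of the 25 was 0.01, beside 0.0050 over all tested loci.

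Other receptors of these lipids were hardly detected. Cnr2, the CB2 receptor gene of immune cells, was listed at 0 to 0.0358 FPKM, Trpv1, an ion channel that anandamide activates, at 0 to 0.0393, and Gpr55 at 0.174 to 0.679. Gpr18 and Gpr119 stayed at or below 0.1045 FPKM. The symbol Trpv1 matched 2 loci, and whether this lowered its value was not tested. Cnrip1, which encodes a protein that binds the tail of CB1, was at 63.6 to 71.6 FPKM and differed by 0.03 on the log2 scale (limma, adjusted p = 0.860), in the same range as Cnr1 itself.

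In the group I mGluR and Gq arm, which drives 2-AG synthesis, 12 of 13 genes were tested, with 9 above 0 and 3 below and a median log2 change of 0.03. Grm5, the main hippocampal group I receptor gene, was at 41.4 to 45.9 FPKM and had a log2 change of 0.01 (95% confidence interval -0.10 to 0.13, adjusted p = 0.938 in limma). Homer2 encodes a scaffold that ties these receptors to their signalling partners. It was at 12.7, 14.3 and 14.3 FPKM in WT and at 15.94, 15.97 and 17.09 FPKM in the libraries labelled *Fmr1* KO, without overlap, a log2 change of 0.25 (95% confidence interval 0.09 to 0.40, adjusted p = 0.163 in limma). The lowest value in this arm was that of Chrm1, a Gq-coupled muscarinic receptor gene, at -0.08 on the log2 scale (limma, adjusted p = 0.574).

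Fatty acid binding proteins carry endocannabinoids through the cytosol to their hydrolases. Fabp7, the form of astrocytes and neural progenitors, was at 578, 533 and 628 FPKM in WT and at 730, 736 and 763 FPKM in the libraries labelled *Fmr1* KO. The genotypes did not overlap. Its log2 change was 0.36 (95% confidence interval 0.22 to 0.51) with an adjusted p of 0.0685 in limma, which was 0.0397 with the replicate number as a block. Fabp5 was at 71.5, 65.9 and 65.1 FPKM in WT and at 61.9, 58.3 and 62.0 FPKM in the libraries labelled *Fmr1* KO, and its log2 change was -0.15 (limma, adjusted p = 0.252). Fabp3 was listed at 0 in all libraries. Its symbol matched 2 loci, and whether this lowered its value was not tested.

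Among the other enzymes, Gde1 and Abhd4 belong to a route to anandamide that bypasses Napepld, and their log2 changes were -0.12 and -0.08 (adjusted p = 0.411 and 0.543 in limma). Pla2g16, of the phospholipase A and acyltransferase family, had the highest value among the NAE synthesis genes, 0.0095 (adjusted p = 0.983). Of the genes for other breakdown routes, Ptgs2, which encodes cyclooxygenase-2 and can oxidise 2-AG, had the lowest log2 change, -0.35, at 0.899 to 1.74 FPKM (95% confidence interval -0.80 to 0.11, adjusted p = 0.465 in limma). Abhd2 had the highest, 0.08 (adjusted p = 0.858). Of the Gi/o proteins that CB1 engages, Gnao1 was the most abundant at 244 to 259 FPKM, and the log2 changes of the 4 genes lay between -0.08 for Gnai2 and 0.10 for Gnai3 (adjusted p = 0.615 and 0.509 in limma).

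**Figure D4:**
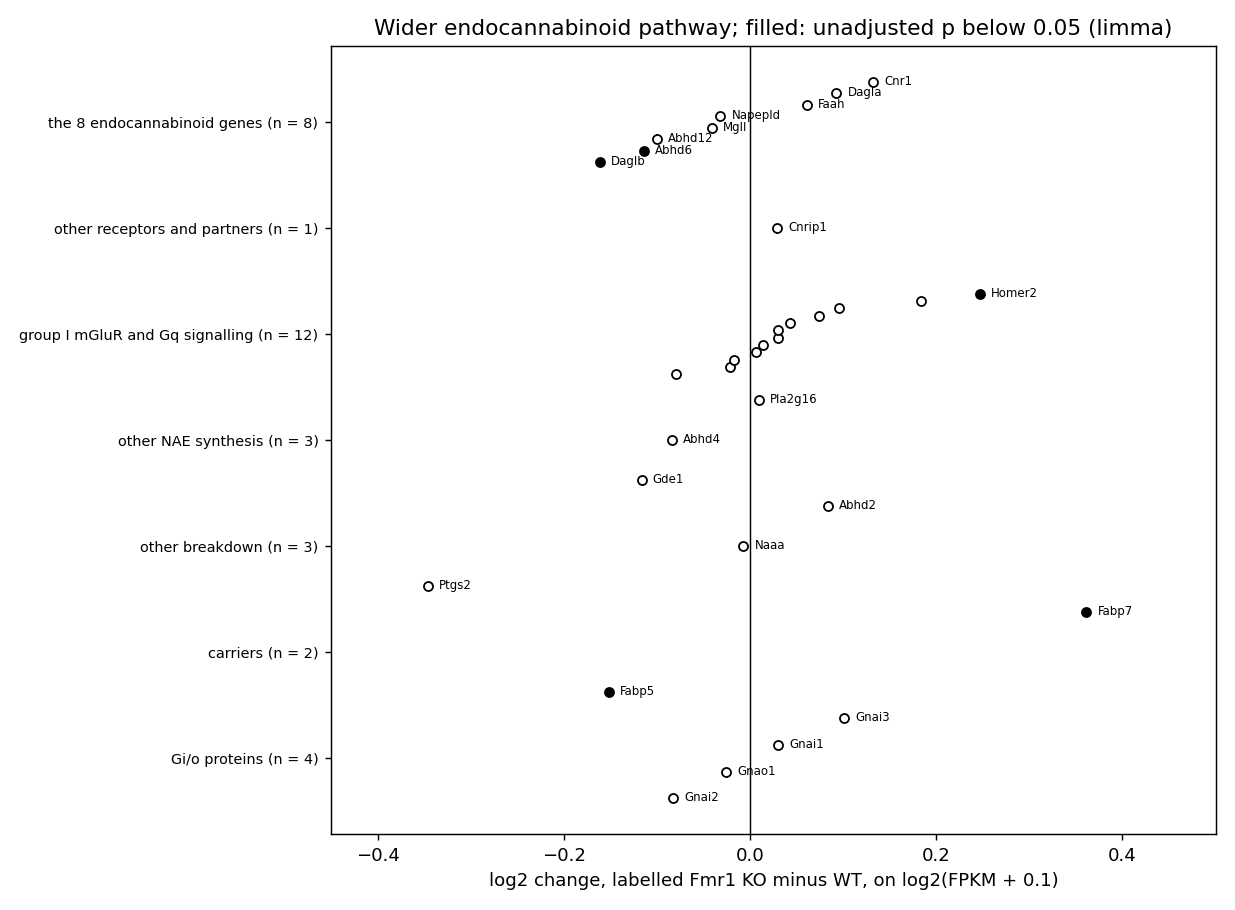
Log2 change of the 8 endocannabinoid genes and of the 25 tested genes of the wider pathway, labelled Fmr1 KO minus WT, by group; each point is a gene and filled points have an unadjusted p below 0.05. The points run from -0.35 for Ptgs2 to 0.36 for Fabp7, and none has an adjusted p below 0.05.

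Several of the 8 genes are known from particular cell types, so marker lists were read beside them. Of the list written for CCK interneurons, where Cnr1 is dense, the summed FPKM of 4 genes was 178 to 201 in WT. In the libraries labelled *Fmr1* KO it was 167 to 185. Most of that sum was Cck, at 145 to 176 FPKM over the 6 libraries, so the sum mainly follows this 1 gene. Cck was above the inhibitory marker Gad1 (83.9 to 92.8 FPKM) in every library. The sum need not come from these interneurons alone, and its source was not tested. Cck had a log2 change of -0.11 and overlapped between the genotypes, as did Htr3a and Reln. Slc17a8, below the minimum for testing, was at 0.557 to 0.751 FPKM in WT and at 0.443 to 0.4999 FPKM in the libraries labelled *Fmr1* KO. Its separation has no background share beside it. The part of these cells in the Cnr1 values was not tested. For inhibitory neurons the sums were 149 to 152 and 142 to 153 FPKM, for excitatory neurons 828 to 863 and 859 to 929 FPKM, and for astrocytes 1081 to 1263 and 1120 to 1233 FPKM. The excitatory markers did not move together. Camk2a was higher in every library labelled *Fmr1* KO (log2 change 0.16), Slc17a7 (-0.06) and Prox1 (-0.29) were lower, and Neurod6 overlapped. Such separation held for 21.1% of all tested loci, and no adjusted p was below 0.05 in limma. The astrocyte markers all overlapped, with log2 changes from -0.19 for Gja1 to 0.14 for Gfap.

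Microglial transcripts were scarce. The sum of 7 microglia markers was 4.16 to 6.29 FPKM in WT and 1.06 to 2.41 FPKM in the libraries labelled *Fmr1* KO. Aif1 was listed at 0 throughout, but its symbol matched 4 loci, and whether this lowered its value was not tested. The 3 tested, C1qa, C1qb and C1qc, had log2 changes of -1.83 to -2.33 and no adjusted p below 0.05 in limma. They reached the minimum of 1 FPKM only through WT, with means of 1.43, 1.05 and 1.30 FPKM against 0.399, 0.163 and 0.357 FPKM. All 3 had an unadjusted p below 0.05, beside 14.8% of all tested loci. A gene that passes the minimum through 1 genotype alone is higher there, so no conclusion is drawn from that count. Cx3cr1 and P2ry12 were not tested and lay near the floor. Cx3cr1 was at 0.199 to 0.411 FPKM in WT and 0.0570 to 0.125 FPKM in the libraries labelled *Fmr1* KO, and P2ry12 at 0.286 to 0.402 and 0.0238 to 0.165 FPKM. The share of loci at such levels whose genotypes do not overlap was not computed, so this separation has no background beside it. Csf1r overlapped, at 0.537 to 1.13 and 0.62 to 0.794 FPKM. For C1qa, C1qb and C1qc the adjusted p in limma was 1.47e-05 to 0.000266 after rescaling without Bc1, with the same limit. Daglb and Abhd12, both known from microglia, were lower in the same libraries, and so was Abhd6, described above as postsynaptic. The part of microglia in the values of these genes was not tested. Of the other lists, the sum of 6 oligodendrocyte lineage markers was 157 to 180 FPKM in WT and 183 to 204 FPKM in the libraries labelled *Fmr1* KO, and that of 3 proliferation markers 24.3 to 29.3 and 28.9 to 34.2 FPKM. The 4 fibroblast and mural cell markers summed to 43.3 to 48.0 and 34.7 to 42.9 FPKM. Most of that sum was Dcn, at 39.0 to 43.8 and 30.1 to 39.0 FPKM, and Col1a1 and Pdgfrb overlapped. Col1a2 was higher in the libraries labelled *Fmr1* KO, at 0.411 to 0.591 against 0.263 to 0.374 FPKM. It was below the minimum for testing, so its separation has no background beside it. The 3 endothelial markers summed to 0.940 to 1.36 and 0.513 to 0.906 FPKM. None of the 3 reached the minimum for testing, so the separation of these sums has no background beside it. Cldn5 was listed at 0, but its symbol matched 2 loci, and whether this lowered its value was not tested.

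The loci whose log2 values followed those of Cnr1 most closely over the 6 libraries were Gm8942, Tmem255a and Snrpa1, with Pearson's r of 0.983, 0.982 and 0.980. For Daglb, the gene with the smallest p, they were Znf41-ps, Eif3m and Urm1, with r of 0.996, 0.994 and 0.992. Of the 13195 tested loci, 26 had an r above 0.95 with Cnr1 and 48 with Daglb. How many loci reach such an r with other genes over 6 libraries was not computed, so these values are a description only. The libraries share their genotype, scaling and depth across all of these loci.

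**Figure D5:**
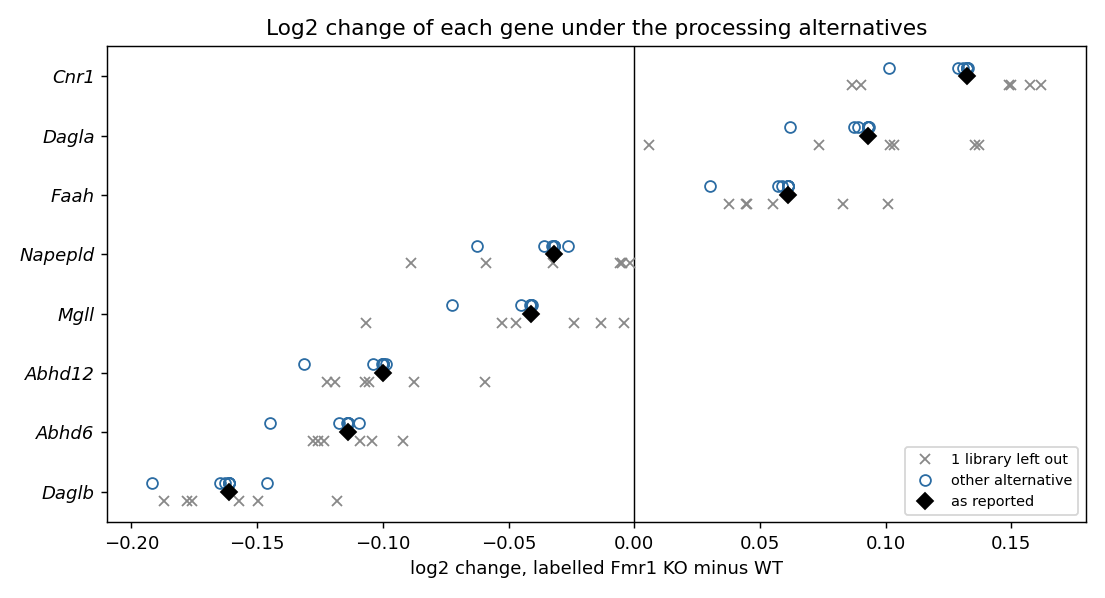
Log2 change of the 8 genes as reported (diamonds), with 1 library left out (crosses) and under the other processing alternatives (circles). Each gene kept its sign in all alternatives run, from 0.09 to 0.16 for Cnr1 and from -0.19 to -0.12 for Daglb.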

How the data were processed

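RNA-seq was analysed for 3 WT and 3 *Fmr1* KO libraries, grouped by sample title. According to the methods and the labels, the authors clipped adapters (Fastx Clipper), trimmed reads (sickle) and aligned them by TopHat2 to GRCm38, with Cufflinks and Cuffdiff for assembly and quantification. For these tools the version, annotation, strand setting and scaling were not stated in the sources used here. In the deposited table each library has 1 column of FPKM. It also holds their group FPKM, fold change, p-value and q-value, which were not used.

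The table has 48100 rows, 462 of them without a symbol, for 47086 loci. Locus starts, which counted from 0, were converted to count from 1. Of the loci, 13195 averaged 1 FPKM or more in one genotype at least, and their log2(FPKM + 0.1) values were tested with limma 3.58.1 (R 4.3.3), genotype as the only term, a trend of the variance with the mean, and Benjamini-Hochberg adjustment. Of a symbol with several loci, the one with the highest mean was taken. The script was tested on simulated data. Ratios and shares were compared by exact permutation tests, two-sided. Nothing states that libraries came from separate animals, so p-values measure the spread between these libraries, which may be technical. Cell numbers and protein were not measured.

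The members and lists were chosen with earlier results of these data known. Named were all 8 genes, pathway genes with an unadjusted p below 0.05 or at the extremes of their group, markers called or at 0, Fmr1, and the 3 loci most similar to Cnr1 and to the member with the smallest p. Grm5, Abhd4, Gnao1, the weakly expressed receptors, Fabp3 and the markers Slc17a7, Camk2a, Neurod6, Prox1, Gad1, Gfap, Gja1, Cck, Slc17a8, Htr3a, Reln, C1qa, C1qb, C1qc, Csf1r, Cx3cr1, P2ry12, Dcn, Col1a1, Col1a2 and Pdgfrb were named after their values were seen. Positions are those of the deposited loci (GRCm38), and strands and overlapping genes came from GENCODE M21 of the same build. The alternatives were other pseudocounts (1 and 0.01), other minima (none and 5), median centring, rescaling without Bc1, no trend, the replicate number as a block, and leaving out each library.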

Additional observations from a re-analysis of the deposited data

How the results depend on the processing

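Under the 14 alternatives (13 for Napepld, which is under a minimum of 5 FPKM), all 8 genes kept the sign of their log2 change and none passed an adjusted p of 0.05 in limma. The lowest adjusted p over all of them was 0.251, for Daglb with the replicate number as a block. The unadjusted p was below 0.05 in 10 alternatives for Daglb, 7 for Abhd6 and 2 for Cnr1. The signs of the 3 ratios also held, and with each library left out the log2 ratio of Dagla to Mgll differed by 0.02 to 0.24. Same-numbered libraries deviated together with correlations of 0.243, 0.058 and 0.080 across loci, and differently numbered ones with -0.152 to 0.078. The value for replicate 1 was thus the highest. The numbers are not said to mark a litter or batch, so they were not taken as pairs in the main fit. With the replicate block, 1 wider pathway gene (Fabp7, adjusted p = 0.0397) and 1 marker (Pdgfra, 0.0496) passed, against 0 of each in the fit without it. Rescaling without Bc1 gave 3 markers (C1qa, C1qb and C1qc), which reach the minimum of 1 FPKM only through WT. It multiplied WT replicate 3 by 0.848 and the other libraries by 0.9499 to 1.114. The cause was not tested. Over all loci, limma called 12 higher and 23 lower at an adjusted p below 0.05, against 6 and 9 without a minimum, 20 and 34 with a minimum of 5, 38 and 50 after rescaling without Bc1, 7 and 14 without the trend, 29 and 36 with the block, and 4 to 8 and 10 to 14 with 1 library left out. With 3 libraries per genotype, no exact p can be below 0.1, and depth is unknown.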
